A study of Mus musculus with 3 samples.

Results

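The cells described here are the mouse ovarian lymphocytes that the authors annotated as T cell/ILC and that held no unique molecular identifier (UMI, 1 counted RNA molecule) of Trdc or Tcrg-C1. Trdc (GRCm38 chr14:54142851-54148868, plus strand) encodes the constant region of the T cell receptor delta chain, and Tcrg-C1 (chr13:19214103-19217024, plus strand) encodes a constant region of the gamma chain. The rule took 477 of the 14353 deposited cells, and 477 of the 700 cells annotated T cell/ILC. The other 223 T cell/ILC cells held at least 1 UMI of either gene and are called Trdc/Tcrg-C1-positive below, while the 477 are called Trdc/Tcrg-C1-negative. Both names refer to detected RNA of these genes only, and other gamma or delta receptor genes were detected in 19.7% of the 477 cells. Because the cells were chosen by their measured UMI counts of Trdc and Tcrg-C1, and because every gene entered the deposited clustering, differences between these populations are descriptions.

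T cells recognise antigen through a receptor made of alpha and beta chains or of gamma and delta chains, held at the membrane by the CD3 proteins. Innate lymphoid cells (ILC) are lymphocytes without a rearranged antigen receptor. They share with tissue T cells the interleukin 7 receptor, which carries survival signals, and several of them carry CXCR6, a chemokine receptor of lymphocytes that stay in tissues. Naive T cells instead pass between blood and lymph nodes with the help of the chemokine receptor CCR7 and the lipid receptor S1PR1.

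All cells came from left ovaries of C57BL/6 female mice in 3 conditions: untreated young mice of 3 months, untreated aged mice whose age the labels do not give for these cells, and aged mice that drank metformin, a drug for type 2 diabetes, at 350 mg/kg/day for 6 months from the age of 14 months. For each condition 3 ovaries from a group of 5 mice were pooled into 1 suspension, digested with enzymes for 30 min at 37 °C, passed through a 40 µm strainer that holds back oocytes, freed of red cells and sorted by flow cytometry. The suspensions were tagged with MULTI-seq barcodes (lipid-anchored DNA tags that mark the condition of a cell), mixed, and loaded as 3 pools, A, B and C, for 10x Genomics 3' single-cell RNA sequencing. A condition is therefore 1 sample, and the 3 pools are technical repeats of it. No test between conditions was possible, and all intervals below are exact 95% intervals that cover counting error only and not the spread between mice. Intervals of gene ratios also leave out the spread between cells.

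The deposited table held 7620 young, 2979 aged and 3754 metformin cells. Of the Trdc/Tcrg-C1-negative cells, 121 were young (49, 25 and 47 in pools A, B and C), 118 were aged (33, 31 and 54) and 238 came from metformin-treated mice (77, 68 and 93). Summed over these cells the depth was 330898, 256582 and 464540 UMIs, with medians of 2610, 1976 and 1868 UMIs per cell. Among all deposited cells 52 shared their cell barcode with a cell of another pool, and 0 of the 477 did. The table marked 0 doublets.

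Of the 2 markers given for these cells, Il7r was found in most of them and Cxcr6 in nearly as many as not. Il7r (chr15:9505788-9530176, minus strand), which encodes the interleukin 7 receptor alpha chain, had a UMI in 71.5% of the Trdc/Tcrg-C1-negative cells. The share was 91.5% in Trdc/Tcrg-C1-positive cells, 35.1% in cells annotated T cell/NKT and 0.456% in fibroblasts, which should lack it and were deeper, with a median of 4043 UMIs. Cxcr6 (chr9:123806475-123811760, plus strand) had a UMI in 48.2% of the Trdc/Tcrg-C1-negative cells, 87.4% of the Trdc/Tcrg-C1-positive cells and 0.525% of fibroblasts. The natural killer cell receptors Ncr1 and Klrb1c were at 0 of 477 cells, which allows a share of up to 0.629% with a UMI of either, whereas 73.8% of NK cell/ILC cells held Ncr1.

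Most of the Trdc/Tcrg-C1-negative cells held RNA of an alpha-beta receptor and of CD3. A UMI of Cd3d, Cd3e or Cd3g, which encode CD3 chains, was found in 89.9% of them, against 98.2% of Trdc/Tcrg-C1-positive cells, 15.9% of NK cell/ILC cells and 2.23% of fibroblasts. A UMI of the alpha or beta constant regions Trac, Trbc1 or Trbc2 was found in 96.7% of the young, 94.1% of the aged and 91.2% of the metformin cells. In the same cells thinned to 1000 UMIs the order differed, at 87.5%, 82.9% and 86.3%. That combined share separates the populations poorly, since without thinning it was also 90.1% in Trdc/Tcrg-C1-positive cells and 73.2% in NK cell/ILC cells. Trac alone differed more: it was detected in 51.4% of Trdc/Tcrg-C1-negative cells, 19.3% of Trdc/Tcrg-C1-positive cells, 63.8% of T cell/NKT cells and 9.25% of NK cell/ILC cells. With every cell thinned to 1000 UMIs, the Trac shares were 35% of Trdc/Tcrg-C1-negative and 11.6% of Trdc/Tcrg-C1-positive cells. Neither a CD3 nor an alpha-beta constant gene was found in 15 of the 477 cells (0 young, 3 aged and 12 metformin).

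Other receptor RNA differed with the number of UMIs of the 2 rule genes, but so did the mix of cells. The authors' cluster 2, described below, held 222 of the 477 cells at 0 UMIs and 4 of the 60 cells with 1 UMI. The part of that mix in the steps below was not tested. Another gamma or delta receptor gene, such as Tcrg-C2, Tcrg-C4 or Trdv4, was detected in 19.7% of the 477 cells at 0 UMIs of the 2 rule genes, in 45% of the 60 cells with 1 UMI and in 100% of the 27 cells with 10 or more. T cell/NKT cells, of which 2.36% held either rule gene, held another gamma or delta receptor gene in 29.1%. Trac ran the other way over the same steps, at 51.4%, 45% and 0%. Median depths were 2031, 2235 and 2040 UMIs. Undetected Trdc RNA and absent Trdc RNA cannot be told apart in a single cell at these depths.

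The 477 cells fell almost wholly into 2 of the authors' deposited clusters. Cluster 2 held 222 of them and is also the cluster of 914 of the 975 T cell/NKT cells, while cluster 8 held 252 and is also the cluster of 213 of the 223 Trdc/Tcrg-C1-positive cells. The remaining 3 lay in clusters 12 and 15. Median depths were 2274 UMIs in the cluster 2 cells and 1901.5 UMIs in the cluster 8 cells. Another gamma or delta receptor gene was found in 94 of the 252 cluster 8 cells (37.3%) and in 0 of the 222 cluster 2 cells, which allows up to 1.35%. That 0 is not a trait of cluster 2 as a whole, since the T cell/NKT cells, mostly of that cluster, often held such a gene (see above). Among the Trdc/Tcrg-C1-negative cells, Il7r was detected in 56.3% of cluster 2 and 84.9% of cluster 8 cells, and Cxcr6 in 14% and 79%.

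Cluster 2 cells carried RNA of recirculating T cells and of CD4 and CD8. Ccr7 was detected in 41%, S1pr1 in 49.1%, and the transcription factor genes Lef1 and Tcf7, which are active in naive and memory T cells, in 47.3% and 53.6% of cluster 2 cells. Ms4a4b, a membrane protein gene of T cells, was found in 82.9%. A UMI of Cd8a or Cd8b1 without Cd4 was found in 26.6% of cluster 2 cells, and a UMI of Cd4 without Cd8 in 21.2%. Of genes that mark regulatory T cells, Foxp3 was detected in 3.6% and Ctla4 in 26.1% of cluster 2 cells. The cluster 2 cells were poorer than their T cell/NKT neighbours in the chemokine gene Ccl5, which had a UMI in 24.8% of the former, 98.4% of the latter and 10.6% of fibroblasts.

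Cluster 8 cells lacked most of this RNA. Neither Cd4 nor Cd8 was detected in 93.3% of them, close to the 97.8% of Trdc/Tcrg-C1-positive cells and far from the 23.8% of T cell/NKT cells. Between cluster 8 and cluster 2, 10.7% of 5479 genes were more than 2-fold higher and 6.46% more than 2-fold lower. The membrane protein genes Tmem176b and Tmem176a, which are prominent in type 17 lymphocytes, were higher in cluster 8 by 6.00 and 6.08 on the log2 scale of CPM (UMIs of a gene per 1000000 UMIs of the summed cells). Pxdc1 (6.74) and Lmo4 (5.20), the gene of a LIM domain adaptor, were higher as well, and S1pr1 (-4.76), Slamf6 (-6.93) and Ms4a4b (-4.11) were lower. The deposited clustering used these genes, so the ratios describe what divides the clusters.

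**Figure D1:**
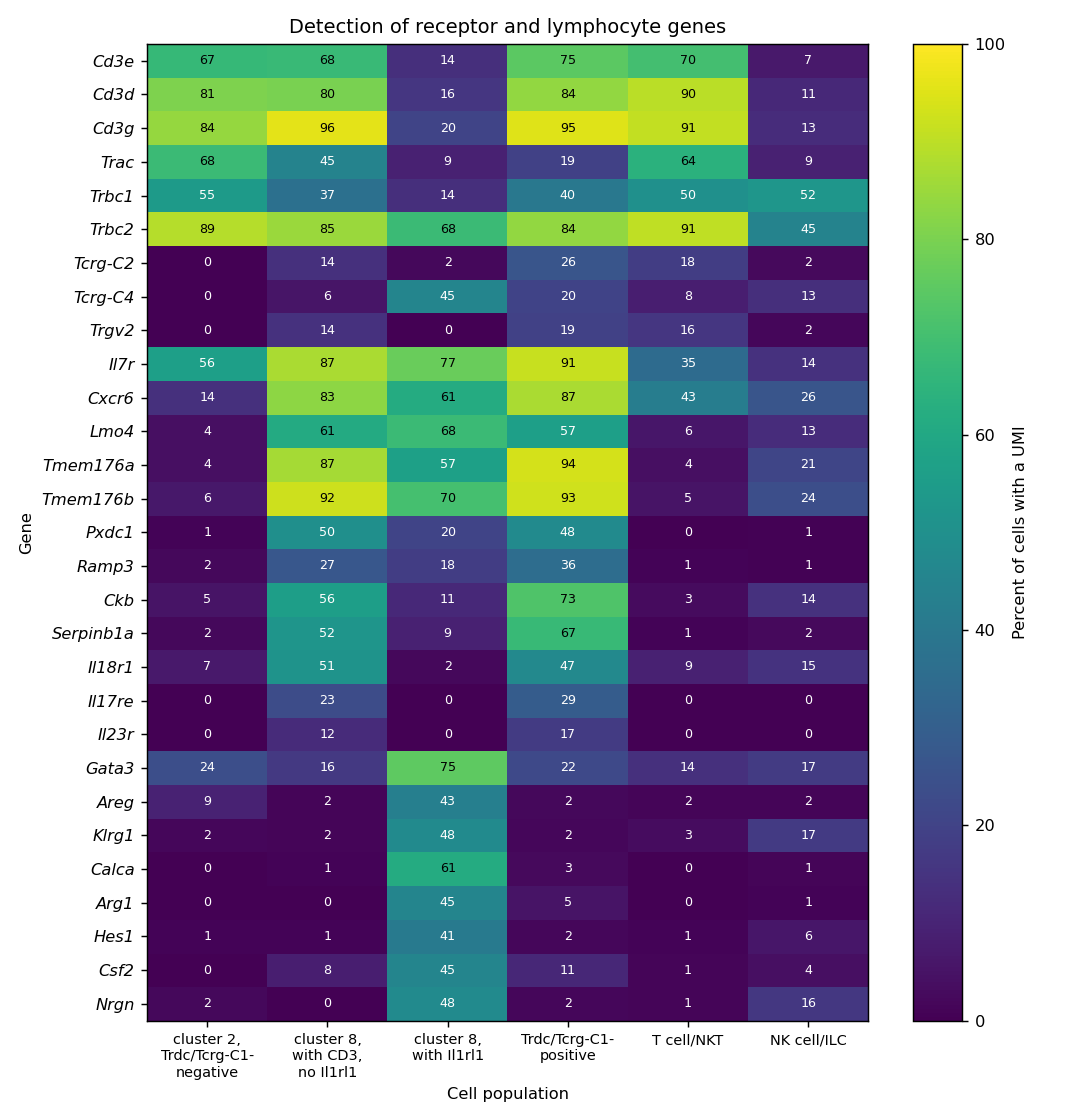
Percent of cells with at least 1 UMI of each gene (rows, colour scale and printed number) in Trdc/Tcrg-C1-negative cells of cluster 2, those of cluster 8 with a CD3 gene and no Il1rl1, those of cluster 8 with Il1rl1, and 3 comparison populations (columns). Il7r, Tmem176a and Tmem176b are most often detected in CD3-positive cluster 8 and Trdc/Tcrg-C1-positive cells, Gata3, Areg and Calca in cluster 8 cells with Il1rl1.

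Within cluster 8, 44 of the 252 cells (17.5%) held a UMI of Il1rl1, the receptor for the alarm cytokine interleukin 33, 195 held a CD3 gene and no Il1rl1, and 13 held neither. This division was made after the data were seen. The 44 cells carried genes known from type 2 innate lymphoid cells: Gata3, the transcription factor of type 2 lymphocytes, was detected in 75% of them against 20.7% of the other 208 cells. Areg, the growth factor amphiregulin, was found in 43.2% against 4.81%, and Calca, the precursor of the neuropeptide CGRP, in 61.4% against 3.37%. Klrg1, an inhibitory receptor, was found in 47.7% against 5.29%, and Arg1, the enzyme arginase 1, in 45.5% against 2.4%. The 13 cells with neither CD3 nor Il1rl1 RNA often held these genes too, with Gata3 in 11, Klrg1 in 8 and Areg in 7 of them, while the 195 cells held Gata3 in 16.4% and Areg in 1.54%. In fibroblasts, the deepest class named here, 0.525% of cells held Areg, 0.319% Calca and 0.228% Gata3. CD3 RNA was rarer among the cells with Il1rl1: 12 of the 44 (27.3%, median depth 2232 UMIs) held a CD3 gene, against 195 of the other 208 cluster 8 cells (93.8%, median depth 1837.5 UMIs). The gamma constant gene Tcrg-C4 was found in 45.5% of the 44 cells, more often than in the 195 (5.64%) or in Trdc/Tcrg-C1-positive cells (20.2%).

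The 195 CD3-positive cells without Il1rl1 carried some type 17 genes nearly as often as Trdc/Tcrg-C1-positive cells and others less often. Il18r1, a receptor chain for interleukin 18, was detected in 51.3% of them and 47.1% of Trdc/Tcrg-C1-positive cells, against 2.27% of the 44 cells with Il1rl1. Il17re, a receptor chain for interleukin 17C, was found in 23.1% and 29.1% and Il23r, a receptor chain for interleukin 23, in 12.3% and 17.5%. Il17re and Il23r were found in 0 of the 44 cells, which allows up to 6.82%. Il17a, the cytokine gene that names this type of lymphocyte, was found in 2.56% and 17.9%. Over the type 17 list, the 252 cluster 8 cells summed together were lower than Trdc/Tcrg-C1-positive cells in 13 of 14 measured genes. Of the 13, 3 were more than 2-fold lower, beside 4.34% of 5440 genes, and the list median log2 ratio was -0.54. That sum includes the 44 cells with Il1rl1, and the list was not read in the 195 cells alone. Of other genes, Cd163l1, a scavenger receptor gene of gamma-delta T cells, was found in 1.54% of the 195 and 50.2% of the Trdc/Tcrg-C1-positive cells. Trac was found in 44.6% and 19.3%.

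Against Trdc/Tcrg-C1-positive cells as a whole, 5.48% of 6644 genes were more than 2-fold higher and 6.38% more than 2-fold lower in the Trdc/Tcrg-C1-negative cells, or 364 and 424 genes. Totals without mitochondrial and ribosomal protein genes turned that balance to 454 and 314, and median-of-ratios scaling to 439 and 325. Among the genes named by rank, the costimulatory receptor gene Tnfrsf4 (169 UMIs against 0, at least 4.63 higher on the log2 scale when 0 is read as 3 UMIs) and Cd4 (62 UMIs against 0) were higher. Ms4a4b (2.84 [2.42 to 3.28]), the costimulatory receptor gene Cd28 (3.19 [2.39 to 4.11]) and Areg (3.19 [2.39 to 4.11]) were higher too, where square brackets give the exact 95% counting interval. Trdv4, a delta variable segment (-5.90 [-6.82 to -5.11]), Cd163l1 (-6.03 [-7.36 to -4.96]) and Sox13, a transcription factor gene of gamma-delta T cells (-5.06 [-7.39 to -3.42]), were lower.

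Against T cell/NKT cells, 5.52% of 8676 genes were more than 2-fold higher and 7.27% more than 2-fold lower. Tmem176a (4.76), the leukotriene B4 receptor gene Ltb4r1 (7.43) and Pxdc1 (7.24) were higher. Ccl5 (-6.57), the effector transcription factor gene Eomes (-5.40) and the granzyme gene Gzmk (-4.99) were lower.

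The share of Trdc/Tcrg-C1-negative cells among all deposited cells was lowest in young and highest in metformin ovaries. It was 1.59% (1.32 to 1.89%) in young, 3.96% (3.29 to 4.72%) in aged and 6.34% (5.58 to 7.17%) in metformin ovaries. In pools A, B and C it was 1.96, 1.0 and 1.79% in young, 2.69, 3.3 and 6.63% in aged and 5.88, 6.59 and 6.59% in metformin cells. Every aged pool lay above every young pool, while the aged and metformin pools overlapped through aged pool C. The aged share was 2.49 (1.92 to 3.24) times the young share, with pools at 1.37, 3.3 and 3.71. The metformin share was 1.6 (1.28 to 2.01) times the aged share, with pools at 2.18, 2.0 and 0.993. A larger share was not particular to these cells. Trdc/Tcrg-C1-positive cells had an aged to young ratio of 8.39 (5.31 to 13.7) and a metformin to aged ratio of 1.12 (0.839 to 1.51). T cell/NKT cells were 168 of 7620 young, 221 of 2979 aged and 586 of 3754 metformin cells. NK cell/ILC cells were 433, 195 and 215 of the same totals. Shares depend on all other cells that survived digestion and the sort. Which gate was used for the sort, the labels do not say.

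The difference in share was larger in cluster 8 than in cluster 2. Cluster 8 Trdc/Tcrg-C1-negative cells made up 0.367% of young, 2.11% of aged and 4.29% of metformin cells, an aged to young ratio of 5.76 (3.63 to 9.33) and a metformin to aged ratio of 2.03 (1.51 to 2.76). The cluster 2 shares were 1.22%, 1.78% and 2.02%, with ratios of 1.46 (1.02 to 2.06) and 1.14 (0.791 to 1.65). In pool A the aged to young ratio for cluster 2 was 0.661, the opposite direction to the sum. Cluster 8 thus held 23.1% of the Trdc/Tcrg-C1-negative cells in young, 53.4% in aged and 67.6% in metformin ovaries. In pools A, B and C these shares were 24.5, 24 and 21.3% in young, 60.6, 38.7 and 57.4% in aged and 62.3, 67.6 and 72% in metformin cells. The pools of the 3 conditions did not overlap.

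**Figure D2:**
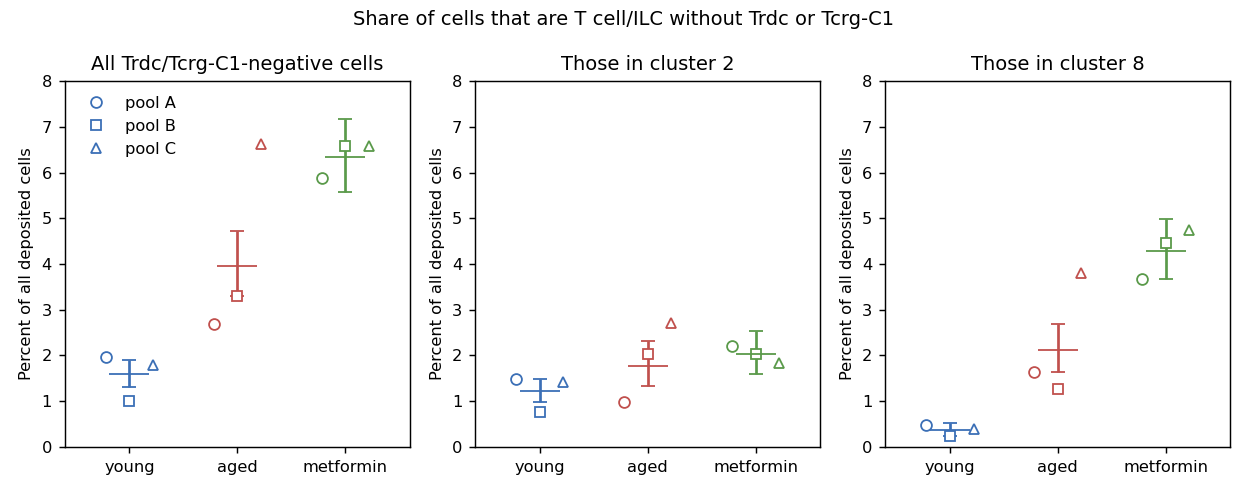
Trdc/Tcrg-C1-negative cells as a percent of all deposited cells by condition, for all of them, for cluster 2 and for cluster 8 (panels). Horizontal marks are the summed pools with exact 95% counting intervals, and circles, squares and triangles are pools A, B and C. Cluster 8 climbs from 0.367% in young to 4.29% in metformin cells.

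Cluster 8 cells with Il1rl1 and those with CD3 and no Il1rl1 were both more frequent in aged than in young ovaries. Cells with Il1rl1 were 4 of 7620 young, 15 of 2979 aged and 25 of 3754 metformin cells, or 0.0525%, 0.504% and 0.666%. Their aged to young ratio was 9.59 (3.06 to 39.7) and their metformin to aged ratio was 1.32 (0.671 to 2.7). Cells with a CD3 gene and no Il1rl1 were 0.289%, 1.41% and 3.49%, with ratios of 4.88 (2.85 to 8.59) and 2.48 (1.74 to 3.59). The metformin to aged ratio of the latter was 2.47, 4.05 and 1.64 in pools A, B and C. That of the Il1rl1 cells has an interval that includes 1. The 13 cells with neither were 2 young, 6 aged and 5 metformin cells.

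Within T cell/ILC, the Trdc/Tcrg-C1-negative cells took the largest part in young ovaries. Their share was 82.9% (75.8 to 88.6%) in young, 59% (51.8 to 65.9%) in aged and 67.2% (62.1 to 72.1%) in metformin ovaries. In pools A, B and C it was 84.5, 83.3 and 81% in young, 48.5, 59.6 and 67.5% in aged and 61.1, 68.7 and 72.1% in metformin cells, with no overlap between young and the other pools. With every cell thinned to 1000 UMIs and the rule read again, the shares were 93.8%, 63.5% and 71.9%. Trdc/Tcrg-C1-positive cells thus made up more of the T cell/ILC class in aged than in young ovaries. A UMI of either rule gene was found in 0.182% of fibroblasts, the level that free RNA could give.

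Within the Trdc/Tcrg-C1-negative cells, CD8 cells stood out among the young. A UMI of Cd8a or Cd8b1 and none of Cd4 was found in 38.8% of young, 5.93% of aged and 7.14% of metformin cells. Young cells were deeper (median 2610 UMIs against 1976 and 1868), which raises detection. Thinned to equal depth, neither Cd4 nor Cd8 was found in 69.2% of young, 90.1% of aged and 89.4% of metformin cells. Cd8 without Cd4 was also found in 73.5% of T cell/NKT cells. That class was 168 of 7620 young, 221 of 2979 aged and 586 of 3754 metformin cells. A change in CD8 cells of the whole ovary was not tested. Cd8b1, the CD8 beta chain gene, was at 244, 423 and 608 CPM in the young pools A, B and C, 27.8, 163 and 76.4 CPM in the aged pools and 85, 62.2 and 77.9 CPM in the metformin pools. No aged or metformin pool reached a young one. The aged to young log2 ratio of Cd8b1 was -2.24 [-2.94 to -1.60], that of Cd8a was -2.77 [-4.46 to -1.44], and within cluster 2 that of Cd8b1 was -1.80 [-2.58 to -1.11]. In the 28 young and 63 aged cells of cluster 8, where Cd8 RNA was scarce, the Cd8b1 ratio had the other sign, at 0.50. Cd4 had a UMI in 10.7% of young, 12.7% of aged and 10.1% of metformin cells. Within cluster 2, Cd4 without Cd8 was found in 12.9% (12 of 93) of young, 26.4% (14 of 53) of aged and 27.6% (21 of 76) of metformin cells.

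Between aged and young Trdc/Tcrg-C1-negative cells, 3678 genes had at least 20 UMIs over both conditions, and the median log2 ratio over them was 0.12. Of these genes 281 (7.64%) were more than 2-fold higher and 127 (3.45%) more than 2-fold lower in aged cells. With totals that leave out mitochondrial and ribosomal protein genes the counts were 202 and 178 around an all-gene median of -0.02, and with median-of-ratios scaling they were 221 and 166. Without pool C 167 genes were more than 2-fold higher with age, and without pool A 84 were more than 2-fold lower. Between pairs of pools of the metformin cells, which are the same suspension, 2.65% to 4.57% of genes passed 2-fold in a given direction at lower depth. Since cluster 8 went from 28 of 121 young to 63 of 118 aged cells, several aged to young ratios below are also given within a cluster. The within-cluster comparisons were chosen after the data were seen.

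Genes of naive and recirculating T cells were lower in aged cells. Of the 14 genes on that list 12 had enough UMIs, and all 12 were lower. Of the 12, 8 were more than 2-fold lower, beside 3.45% of all genes, and the median log2 ratio was -1.19. Klf2, a transcription factor that maintains lymphocyte recirculation, was at 1762, 1544 and 1715 CPM in the young pools A, B and C, 597, 940.0 and 629.9 CPM in the aged pools and 438, 373 and 317 CPM in the metformin pools. The 3 conditions did not overlap, and the aged to young log2 ratio was -1.24 [-1.49 to -1.0]. Ccr7 (-1.31 [-1.84 to -0.80]), Lef1 (-1.18 [-1.77 to -0.62]) and Dapl1, a gene of naive T cells (-2.76 [-3.76 to -1.90]), were lower as well. Igfbp4 (-2.25 [-3.65 to -1.09]) and Ly6c2 (2 against 35 UMIs), a surface protein gene of memory CD8 T cells and monocytes, were also lower.

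The same list was lower within cluster 2, though by less. There 11 of 12 genes were lower, 4 of them more than 2-fold, beside 4.61% of 2537 genes, and the median was -0.54 beside 0.16 over all genes. Klf2 in cluster 2 was at 2148, 1659.9 and 2152 CPM in the young pools, 1404, 1429 and 1439.6 CPM in the aged pools and 887, 784 and 1094 CPM in the metformin pools. The pools of the 3 conditions did not overlap, and the aged to young log2 ratio was -0.51 [-0.77 to -0.27]. Dapl1 in cluster 2 had a ratio of -2.06 [-3.06 to -1.20], although 75% of its 12 aged UMIs came from 1 cell.

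Tnfrsf4 ran the other way in cluster 2. This gene, which encodes the costimulatory receptor OX40 of activated and regulatory T cells, was at 128, 83 and 10 CPM in the young, 456, 502 and 382 CPM in the aged and 923, 495 and 219 CPM in the metformin pools of cluster 2. Every aged and metformin pool lay above every young pool, and the aged to young log2 ratio was 2.63 [1.86 to 3.46]. On the list of CD4, CD8 and regulatory T cell genes, 5 of 8 measured in cluster 2 were higher in aged cells, 3 of them more than 2-fold beside 6.74% of all genes, and 3 were lower. Of the 14 alpha-beta receptor and CD3 genes, 11 were higher in aged cluster 2 cells, with a median of 0.51. Of the 11, 2 were more than 2-fold higher, beside 6.74% of all genes. Over all Trdc/Tcrg-C1-negative cells the same list was even, with 7 higher and 7 lower and a median of 0.00.

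**Figure D3:**
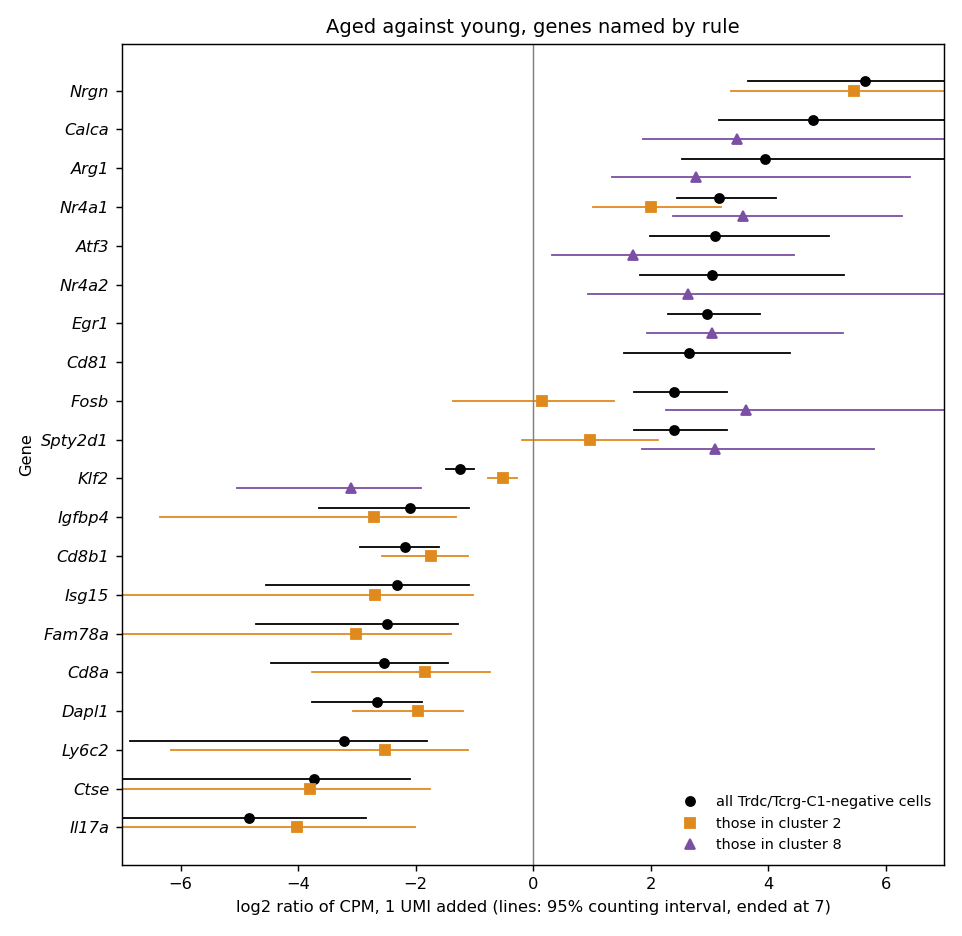
Log2 ratio of CPM, aged over young, with 1 UMI added, for genes named by rank (rows). Circles are all Trdc/Tcrg-C1-negative cells, squares those of cluster 2 and triangles those of cluster 8, where a gene had at least 20 UMIs, with 95% counting intervals drawn to 7 at most. Calca, Arg1 and Nr4a1 lie to the right and Ctse, Dapl1 and Cd8b1 to the left.

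Genes of type 2 lymphocytes were higher in aged cells. Of the 22 genes on the type 2 and ILC2 list 11 had enough UMIs, and all 11 were higher. Of the 11, 10 were more than 2-fold higher, beside 7.64% of all genes, and the median log2 ratio was 2.42. Gata3 was at 114, 137 and 126 CPM in the young, 389, 313 and 325 CPM in the aged and 327, 207 and 282 CPM in the metformin pools. Every aged pool lay above every young pool, with a log2 ratio of 1.45 [0.90 to 2.02]. Calca had 41 against 1 UMIs in aged and young cells (5.72 [3.17 to 11.06]), Arg1 had 35 against 2 (4.50 [2.54 to 7.60]), and Hes1, a target of Notch signalling, had 28 against 1. Il1rl1 (2.33 [1.30 to 3.50]), the cytokine gene Csf2 (2.55 [1.49 to 3.78]) and Klrg1 (2.59 [1.29 to 4.15]) were higher as well. For Areg (2.17 [1.44 to 2.97]) 1 of the 2 young cells with a UMI supplied 90% of the young total.

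Within cluster 8 most of these genes were still higher in aged cells. Of 10 measured genes 9 were higher, 7 of them more than 2-fold beside 8.81% of 1419 genes, with a median of 1.68 beside -0.08 over all genes. Gata3 in cluster 8 was at 101, 77.1 and 150.2 CPM in the young, 485, 214 and 455 CPM in the aged and 461, 203 and 338 CPM in the metformin pools, with no overlap between young and aged and a ratio of 1.83 [0.74 to 3.11]. Calca in cluster 8 had a ratio of 4.43 [1.86 to 9.77], Il1rl1 of 1.90 [0.54 to 3.62] and Lmo4 of 0.21 [-0.32 to 0.76]. The share of cluster 8 cells with Il1rl1 was 14.3% in young, 23.8% in aged and 15.5% in metformin cells, and the young figure rests on 4 cells. Icos, a costimulatory receptor gene, was the 1 gene lower in aged cluster 8 cells (-0.78 [-1.51 to -0.04]). Nrgn, the gene of the calmodulin-binding protein neurogranin, headed the ranked genes with 38 aged UMIs against 0 young, at least 4.03 higher on the log2 scale, and was found in 47.7% of the cluster 8 cells with Il1rl1. Of its aged UMIs 44.7% came from 1 cell.

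On the type 17 list, 5 of 6 genes measured in cluster 8 were lower in aged cells. The list median log2 ratio was -0.39, over 28 young and 63 aged cells. Of the 5 genes, 2 were more than 2-fold lower, beside 5.92% of 1419 genes. The 2 are neighbouring genes. Tmem176b in cluster 8 was at 2666, 1774 and 2402 CPM in the young, 1303, 893 and 1109 CPM in the aged and 1967, 2156 and 1707 CPM in the metformin pools. Tmem176a, its neighbour on chromosome 6, was at 2429, 1157 and 2215 CPM, 971, 964 and 1127 CPM and 1352, 1985 and 1435 CPM. All aged pools of both genes lay below all young and all metformin pools. The aged to young log2 ratios were -1.10 [-1.43 to -0.76] and -1.02 [-1.37 to -0.67]. Over all Trdc/Tcrg-C1-negative cells, where cluster 8 had grown, they were 0.17 and 0.18. Of 10 measured alpha-beta receptor and CD3 genes 7 were lower in aged cluster 8 cells, 2 of them more than 2-fold beside 5.92% of all genes, with a median of -0.66. No CD3 gene was found in 4 of the 28 young and 17 of the 63 aged cluster 8 cells. These ratios sum cells with and without CD3 RNA, and the part of that mix was not tested.

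Il7r and Cxcr6 themselves were higher in aged cells when all Trdc/Tcrg-C1-negative cells were summed. Il7r was at 785, 710.3 and 917 CPM in the young, 1333, 1028 and 1069 CPM in the aged and 1112, 1202 and 994 CPM in the metformin pools, and Cxcr6 was at 389, 219 and 213, 722, 276 and 725 and 687, 684 and 725 CPM. The aged to young log2 ratios were 0.46 [0.22 to 0.71] for Il7r, with no overlap of pools, and 1.04 [0.66 to 1.43] for Cxcr6, whose aged pool B lay among the young pools. Il7r had a ratio of -0.11 [-0.50 to 0.26] in cluster 2 and 0.52 [0.13 to 0.92] in cluster 8. Within cluster 8 the Cxcr6 ratio was 0.01 [-0.42 to 0.44], at 1248, 926 and 938 CPM in the young, 1201, 643 and 1200.2 CPM in the aged and 1025, 1014 and 982 CPM in the metformin pools.

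Immediate early genes, which answer stimulation and also the stress of enzymatic digestion within minutes, were higher in aged cells. Of the 23 genes on the dissociation stress and immediate early list 20 had enough UMIs, and 18 were higher in aged cells. Of the 18, 11 were more than 2-fold higher, beside 7.64% of all genes, and the list median log2 ratio was 1.10. Nr4a1, a nuclear receptor gene induced by antigen receptor signalling, was at 61, 41 and 31.6 CPM in the young, 499.8, 439 and 372 CPM in the aged and 340.2, 290.1 and 473 CPM in the metformin pools. Young pools did not overlap with the others, and the aged to young log2 ratio was 3.24 [2.46 to 4.13], with 2.07 [1.01 to 3.20] in cluster 2 and 3.97 [2.37 to 6.28] in cluster 8. Egr1 (3.03 [2.29 to 3.87]), Fosb (2.46 [1.71 to 3.29]) and Junb (1.15 [0.99 to 1.31]), which encode further transcription factors of this kind, were higher too. Jun (1.07 [0.78 to 1.37]) and Fos (1.14 [0.87 to 1.42]) were also higher.

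The list was also read within each cluster. In cluster 8 all 17 measured genes were higher in aged cells, 12 of them more than 2-fold beside 8.81% of 1419 genes, with a median of 1.50. In cluster 2, 15 of 17 were higher, 3 of them more than 2-fold beside 6.74% of 2537 genes. The list median there, 0.16, was that of all genes. Jun, with ratios of -1.13 [-1.80 to -0.50] in cluster 2 and 1.65 [1.14 to 2.19] in cluster 8, was lower in the one and higher in the other. Egr1 stood at -0.15 in cluster 2. Fos in cluster 2 was at 689.7, 415 and 490.4 CPM in the young and 281, 367 and 539.8 CPM in the aged pools, which overlapped, and its ratio in cluster 8 was 2.02 [1.48 to 2.61].

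Summed over the list, these genes made up 8381, 7745 and 7119 CPM in the young pools A, B and C. They made up 16342, 12433 and 15224 CPM in the aged pools and 10638, 9036 and 11867 CPM in the metformin pools. The 3 conditions did not overlap, with an aged to young ratio of 1.89 and a metformin to aged ratio of 0.721. The aged to young ratio was 2.6 in cluster 8 and 1.26 in cluster 2, and it was 1.68 in Trdc/Tcrg-C1-positive cells, 1.06 in T cell/NKT cells and 1.32 in fibroblasts. Of the 14 annotated classes with at least 20 cells in every condition, 7 had a higher sum in aged than in young cells. In 12 of the 14 the sum was lower in metformin than in aged cells, in several by little, with a ratio of 0.965 in NK cell/ILC cells. The 14 include T cell/ILC itself, with ratios of 1.84 and 0.68. A digestion effect and a response in the ovary cannot be told apart here, since each condition was digested as 1 suspension.

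**Figure D4:**
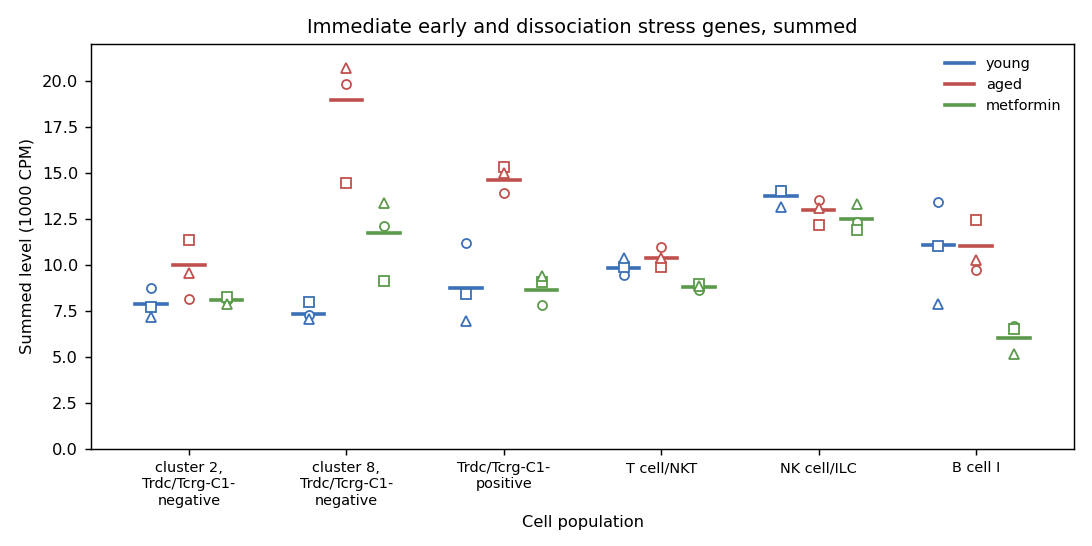
Summed level of the dissociation stress and immediate early genes in units of 1000 CPM (vertical axis) for the Trdc/Tcrg-C1-negative cells of clusters 2 and 8 and 4 comparison populations, by condition (colour). Horizontal bars are summed pools, and circles, squares and triangles are pools A, B and C. Among the 6 populations drawn, the aged bar is highest in cluster 8 and stands close to the young bar in T cell/NKT cells.

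RNA of other cell types was found in these cells and varied between pools. The 8 stromal fibroblast markers, such as Dcn and Col1a1, summed to 175 CPM in young, 479 CPM in aged and 66.7 CPM in metformin Trdc/Tcrg-C1-negative cells, with pools from 39.5 to 381, 62.7 to 954 and 55.3 to 78.5 CPM. All 8 were detected in young and aged cells, and Lum was at 0 in metformin cells. Of the 212 UMIs behind these sums 154 came from 4 cells, 1 young and 3 aged. Without those 4 cells the sums were 31.6, 69.7 and 66.7 CPM, and 270 genes were more than 2-fold higher and 110 more than 2-fold lower in aged cells. The 8 B cell markers summed to 1173, 982 and 949 CPM, mostly immunoglobulin RNA, with overlapping pools from 423 to 1929, 476 to 1336 and 504.3 to 1276 CPM and with Ms4a1 at 0 in every condition. The part of this RNA in the results was not tested.

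Single genes outside the lists also differed with age. Ctse, the gene of the aspartic protease cathepsin E, was at 76.3, 123 and 111 CPM in the young, 0, 0 and 9.54 CPM in the aged and 0, 0 and 0 CPM in the metformin pools. Its UMIs came from 26 young cells and 1 aged cell, and the aged to young log2 ratio was -4.68 [-10.02 to -2.10]. Isg15, an interferon-induced gene, was lower in aged cells (-2.59 [-4.55 to -1.09]). The interferon response list as a whole had 2 genes higher and 6 lower of 8 measured. Of the 8, 2 were more than 2-fold lower, beside 3.45% of all genes, and the median was -0.39. The cytokine gene Il17a had 36 young UMIs and 0 aged UMIs, but a single cell supplied 75% of them, and over all T cell/ILC cells the log2 ratio had the other sign, at 1.74. Cd81, which encodes a membrane tetraspanin (2.83 [1.55 to 4.37]), and Spty2d1 (2.46 [1.71 to 3.29]) were higher.

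Between metformin and aged cells, fewer genes differed by 2-fold. Of 4516 genes with at least 20 UMIs, 191 (4.23%) were more than 2-fold higher and 141 (3.12%) more than 2-fold lower in metformin cells, near the shares between pools of 1 suspension. The median log2 ratio over all of them was -0.01. Without pool B 126 genes were more than 2-fold higher, and without pool C 83 were more than 2-fold lower. The aged cells serve in this comparison and in the one with age, so the 2 sets of ratios are not independent. Cells of cluster 8 were 63 of 118 aged and 161 of 238 metformin cells.

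Immediate early genes were lower in metformin than in aged cells. On that list 19 of 20 measured genes were lower, 1 of them more than 2-fold beside 3.12% of all genes, with a median of -0.52. In cluster 8 all 17 measured genes were lower, 5 of them more than 2-fold beside 3.73% of 3079 genes, with a median of -0.63, and in cluster 2 15 of 17 were lower, 2 more than 2-fold beside 2.53% of 1980 genes, with a median of -0.39. Junb was at 3485, 3008 and 3751 CPM in the aged pools A, B and C and 2623, 2017 and 2863 CPM in the metformin pools, with no overlap and a log2 ratio of -0.45 [-0.58 to -0.32]. Rgs2, which encodes a brake on G protein signalling, was at 541, 351 and 754 CPM in the aged and 255, 263 and 204 CPM in the metformin pools. The Rgs2 ratio was -1.25 [-1.62 to -0.89] over all cells and -2.18 in cluster 8, whereas in cluster 2 it was 0.06.

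Genes named by rank as lower in metformin cells had various functions. Tnf, the cytokine tumour necrosis factor, was at 97.2, 175 and 153 CPM in the aged and 39.3, 55.3 and 41.9 CPM in the metformin pools, with no overlap and a log2 ratio of -1.67 [-2.52 to -0.86]. Tnfsf11, which encodes the cytokine RANKL, was at 180.5, 138 and 191 CPM and 58.9, 69.1 and 71.9 CPM, again with no overlap (-1.36 [-2.07 to -0.67]). Hilpda, a hypoxia-induced lipid droplet gene (-1.24 [-1.73 to -0.75]), and Arg1 (-1.82 [-2.72 to -0.96]) were lower as well. For Cxcl2 (-1.95 [-2.47 to -1.46]), a neutrophil chemokine gene, Nrn1 (-2.38) and Igfbp7 (-1.73), 50.5%, 65.2% and 54.5% of the aged UMIs came from 1 cell. Of 14 genes of NF-kB and its negative feedback 11 were lower, 1 more than 2-fold beside 3.12% of all genes, with a median of -0.26.

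Most measured type 17 genes were higher in metformin cells. Of the 18 genes on that list 11 had enough UMIs, and 9 were higher. Of the 9, 4 were more than 2-fold higher, beside 4.23% of all genes, and the list median was 0.70. Tmem176b was at 764, 338 and 659 CPM in the aged and 1256, 1416 and 1252 CPM in the metformin pools, and Tmem176a at 569, 338 and 629.9 CPM and 870.1, 1299 and 1054 CPM. Neither gene overlapped between the conditions, and the log2 ratios were 1.15 [0.89 to 1.42] and 1.03 [0.76 to 1.32]. Il17re (1.37 [0.31 to 2.59]), Serpinb1a, a serine protease inhibitor gene (0.73 [0.16 to 1.32]), and the transcription factor gene Maf (0.52 [0.10 to 0.94]) were higher too.

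Within cluster 8 these differences shrank. There 8 of 10 type 17 genes were higher but 0 passed 2-fold, beside 6.11% of all genes, with a median of 0.31 beside -0.05 over all genes. The ratio was 0.78 [0.51 to 1.06] for Tmem176b and 0.60 [0.31 to 0.89] for Tmem176a, while the intervals of Serpinb1a and Maf included 0. In cluster 2 the 3 measured type 17 genes had a median of -0.61. Gclc, a subunit of the enzyme that limits glutathione synthesis, was at 27.8, 37.6 and 28.6 CPM in the aged and 131, 138 and 114 CPM in the metformin pools, with no overlap (2.03 [0.95 to 3.30], and 1.48 [0.33 to 2.87] in cluster 8). Cysltr1, a receptor gene for cysteinyl leukotrienes, was at 69.4, 12.5 and 28.6 CPM and 124, 96.7 and 114 CPM, with no overlap (1.67 [0.64 to 2.88]).

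**Figure D5:**
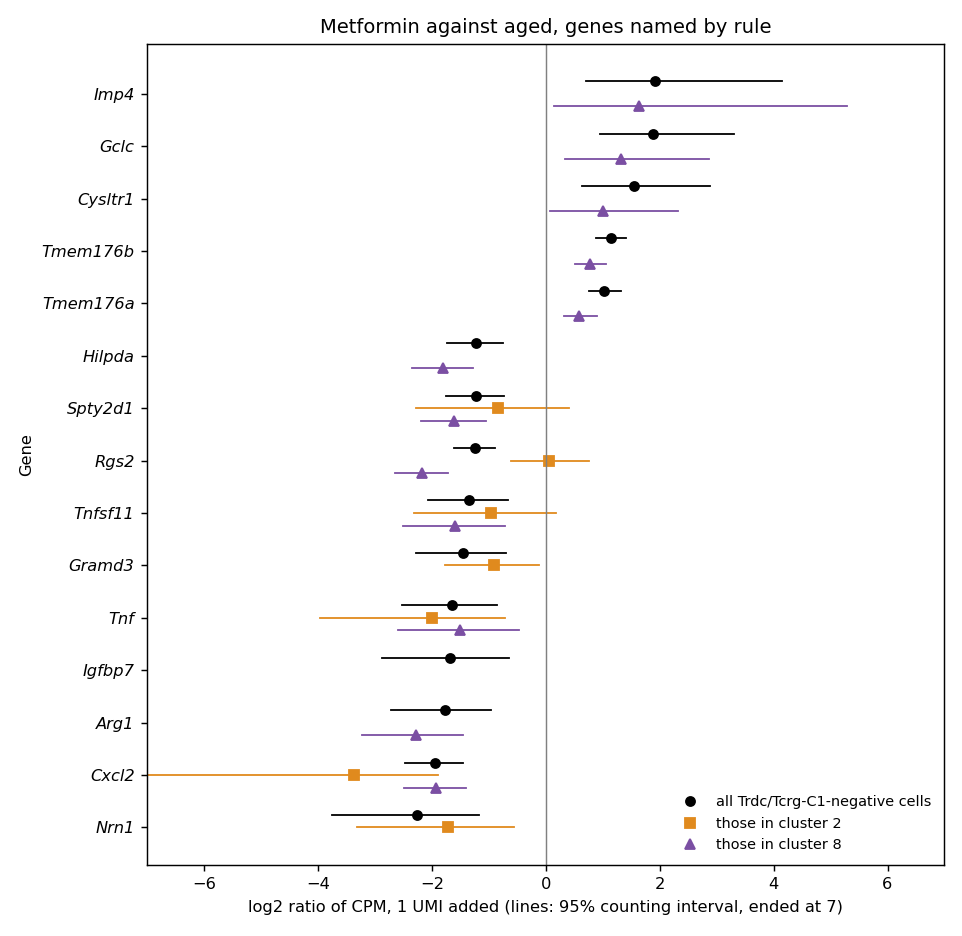
Log2 ratio of CPM, metformin over aged, with 1 UMI added, for genes named by rank (rows). Circles are all Trdc/Tcrg-C1-negative cells, squares those of cluster 2 and triangles those of cluster 8, where a gene had at least 20 UMIs, with 95% counting intervals drawn to 7 at most. Gclc, Tmem176b and Tmem176a lie to the right and Arg1, Tnf and Rgs2 to the left.

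Type 2 genes went both ways between metformin and aged cells. Of 12 measured genes 5 were higher and 7 lower in metformin than in aged cells, with a median of -0.25. Of the 12, 2 were more than 2-fold lower, beside 3.12% of all genes. Of 12 in cluster 8, 9 were lower, 5 of them more than 2-fold beside 3.73% of 3079 genes, with a median of -0.35. Il1rl1 in cluster 8 was at 179, 393 and 273 CPM in the aged and 174, 128 and 107 CPM in the metformin pools, with pool A nearly level and pools B and C lower, and the ratio was -1.01 [-1.70 to -0.30]. Klrg1 in cluster 8 had a ratio of -1.65 [-2.53 to -0.78] and Arg1 of -2.31 [-3.22 to -1.46], whereas Areg (0.08 [-0.40 to 0.58]), Calca (0.23 [-0.31 to 0.80]) and Gata3 (-0.29 [-0.78 to 0.23]) had intervals that include 0. Among naive and recirculating genes 7 were higher and 5 lower of 12 measured, with a median of 0.09. Dapl1 in cluster 2 was higher with metformin (1.40 [0.44 to 2.47]).

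Genes of energy metabolism differed little between conditions. Of 20 nuclear genes of oxidative phosphorylation 14 were higher in aged than in young cells and 13 higher in metformin than in aged cells, 0 of them past 2-fold in either comparison, with medians of 0.06 and 0.13. The first median was -0.07 with totals that leave out mitochondrial and ribosomal protein genes and -0.04 with median-of-ratios scaling. In cluster 8 all 20 were lower in aged than in young cells, with a median of -0.34. Of the 20, 1 was more than 2-fold lower, beside 5.92% of 1419 genes. The 13 mitochondrially encoded genes had medians of 0.00 and 0.03, with the first at -0.14 and -0.10 under those scalings, and the glycolysis genes had medians of -0.10 over 11 genes and 0.24 over 13 genes, both against all-gene medians of 0.12 and -0.01. Of 10 measured genes of the AMPK and mTOR pathway, which senses cellular energy and is known to respond to metformin, 8 were lower in metformin cells, 0 of them more than 2-fold, with a median of -0.24. Among the 12 class I MHC genes 0 passed 2-fold in either comparison, with medians of -0.07 and 0.23.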

How the data were processed

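Gene expression of single ovarian cells was measured in 3 pools, and a cell table gave each cell its condition, cell type and clusters. The deposited values are raw UMI counts per gene and cell, with no normalization by the authors; Cell Ranger 3.0.2 and the mouse build GRCm38 are named in the submitters' processing notes. The deposited matrix held 18789 genes and cells of at least 500 UMIs, of at most 19.97% mitochondrial UMIs, a percent value computed by the authors. The deposited cell table marked 0 doublets, and no doublet caller was run here.

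UMIs were summed over cells per condition and scaled to CPM of the summed total, in Python 3.11.15 with NumPy 2.4.6, SciPy 1.17.1 and pandas 2.3.3. Shares have exact Clopper-Pearson 95% intervals. Ratios have exact intervals conditional on the summed count. UMIs of a cell are not independent draws from mice, so the intervals cover counting error only. For genes they treat each UMI as a separate draw and leave out the spread between cells as well. Gene intervals are therefore narrower where few cells supply the UMIs than the sampling of cells allows. A gene was measured with at least 20 UMIs over both groups, and called past 2-fold. A gene high in 1 group can reach this minimum through that group alone, which affects the list counts and medians. List medians add 1 UMI to each count. A fold against 0 reads 0 as 3 UMIs over the group. The ratio intervals and the 2-fold call alone were tested, on simulated sums that held counting error and no spread between cells or pools.

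Named genes had at least 30 UMIs, up to 10 each way ranked by the interval bound nearest 0, beyond 0.58, with 1 sign in every pool of at least 10 cells; up to 8 each way were taken against other populations, without the condition on pools. Mitochondrial, ribosomal and haemoglobin genes, Malat1, Xist, unnamed gene models and the top 20 genes of every class outside T, NK and innate lymphoid cells were left out. Each list also gave up to its 4 most abundant genes and those whose interval excludes 0, and a fixed set of receptor and effector genes was always kept. The cells, lists and rules were chosen with earlier results of these data known. Alternatives were other scalings, count minimums, pseudocounts, depths (1000 UMIs thinned, or at least 1500), memberships, and leaving out a pool or the top cell of a gene. Of the listed genes 9 were not analysed here.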

Additional observations from a re-analysis of the deposited data

Results flagged for a closer look

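The Trdc/Tcrg-C1-negative cells of clusters 2 and 8 moved in opposite directions in every pool for 8 of the 212 pairs of gene and comparison that had at least 20 UMIs in both clusters. The difference between the clusters was not tested, and a pool of few cells moves by counting error alone. How many pairs would be flagged if every sign were random was not computed, so the number of flagged pairs is not a result. All values are log2 ratios of CPM.

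Of the genes flagged for aged against young cells, the receptor genes Cd3e and Trbc2 were higher in cluster 2 and lower in cluster 8. Cd3e, a CD3 chain gene, stood at 0.71 in cluster 2 and -1.25 in cluster 8, and the beta constant gene Trbc2 stood at 0.55 and -0.69. Cells without a CD3 gene were 14.3% of young and 27% of aged cluster 8 cells, and the part of that mix was not tested. The class I MHC gene H2-K1 (0.56 and -0.40) and Uqcrb, a subunit of respiratory complex III (0.47 and -0.64), had the same arrangement. Jun, an immediate early transcription factor gene, had the reverse one, at -1.13 and 1.65.

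Between metformin and aged cells, Itgb1, the beta 1 integrin gene, stood at -0.63 in cluster 2 and 1.49 in cluster 8. Traf1, an adaptor of tumour necrosis factor receptors, stood at -1.11 and 0.67. Uqcrq, another subunit of complex III, stood at 0.83 and -0.36.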

How the results depend on the processing

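No paired analysis was possible because each condition is 1 sample, so that no test was run; the pools were compared side by side and left out in turn. Of 826 recomputed list medians 698 moved by less than the SD over pools, or by less than a fixed margin where a list was not measured in every pool. Of 525 recomputed values of single genes 432 stayed within the counting interval of the reported value. Leaving out 1 pool gave aged to young ratios of the share of all cells between 2.0 and 3.45 and metformin to aged ratios between 1.36 and 2.09; for the share of T cell/ILC the ranges were 0.634 to 0.787 and 1.10 to 1.21. The alpha-beta share then ran from 94.6 to 98.6% in young, 90.6 to 97.7% in aged and 90.0 to 92.4% in metformin cells. Counts of genes past 2-fold were 167 to 273 higher and 84 to 133 lower with age, 126 to 203 and 83 to 128 with metformin, and 297 to 323 and 386 to 395 against Trdc/Tcrg-C1-positive cells. The extremes came without pool C for 167, without pool A for 84, without pool B for 126 and without pool C for 83. Thinned to 1000 UMIs and with the rule read again, the alpha-beta shares were 85.3%, 82.5% and 86.4%. The counts with age were then 133 and 66, and 259 genes were lower than in Trdc/Tcrg-C1-positive cells. Without cells holding another gamma or delta receptor gene the metformin alpha-beta share was 94.5%. Asking for 50 UMIs left 64 and 26 genes with age, 27 and 20 with metformin, and 124 and 151 against Trdc/Tcrg-C1-positive cells, since fewer genes were then measured; with no minimum they were 2913 and 2045, 2642 and 1872, and 2851 and 2366.

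In alternatives chosen after the data were seen, cluster 2 alone gave share ratios of 1.46 and 1.14, 171 genes higher with age, and 74 and 50 past 2-fold with metformin. Cluster 8 alone gave 5.76 and 2.03, and 125 and 84 genes with age; its cells with a CD3 gene gave 64 and 54 with age and 88 lower with metformin. Signs changed for Egr1 (-0.15) and Jun (-1.13) with age in cluster 2, for Tmem176b (-1.10) and Tmem176a (-1.02) in cluster 8, for Cd8b1 in cluster 8 (0.50, and 0.90 with CD3), for Atf3 in cluster 8 with CD3 (-0.43), and for Il17a over all T cell/ILC (1.74). With metformin they changed in cluster 2 for the type 17 median (-0.61), Tmem176b (-0.85), Rgs2 (0.061) and Igfbp7 (0.22). The lipid and cholesterol median of 3 genes (-1.05 with metformin) was between -0.32 and 0.83 when a pool was left out (0.83 without pool A, 0.44 without pool C), 0.00341 without other gamma or delta receptor RNA and 0.14 with no minimum. The cause was not tested. Cluster 8 held 28 young cells, which limits every ratio with age there.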

Other observations

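Ctse, the cathepsin E gene, was also scarce in aged cells of other immune classes. In macrophages and monocytes of the class Macrophage/Monocyte I, Ctse had 399 UMIs in 332 of 1649 young cells (20.1%), 0 of 203 aged cells and 0 of 242 metformin cells. The counts of 0 allow shares of up to 1.48% and 1.24%. In NK cell/ILC cells Ctse was found in 64 of 433 young cells (14.8%), 2 of 195 aged cells and 3 of 215 metformin cells. In T cell/NKT cells it was found in 28 of 168 young, 1 of 221 aged and 4 of 586 metformin cells, and in B cell I cells in 31 of 145, 3 of 123 and 7 of 181. Fibroblasts, with 2 of 1984 young cells, held almost none. Every one of these immune classes thus had its highest share in young cells, as the Trdc/Tcrg-C1-negative cells did (26 of 121).

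Areg RNA, besides marking the cluster 8 cells with Il1rl1, was found in a smaller share of cluster 2 cells, at 9.46%, and in 1.54% of T cell/NKT cells and 2.24% of Trdc/Tcrg-C1-positive cells. Il13, a type 2 cytokine gene, was detected in 2 of the 477 Trdc/Tcrg-C1-negative cells.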
